A study of Mus musculus with 3 samples.

Results

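The complement system was followed through 9 genes, chosen by name, in single cells of the mouse liver: C1qa, C1qb, C1qc, C3, C6, Cfp, C5ar1, C3ar1 and Vsig4. They are 9 of the 23860 genes measured, and they were taken to set components made by hepatocytes against components made by macrophages and to find the cells that bear the receptors. Liver non-parenchymal cells (NPCs) had been captured on the BD Rhapsody, and each mRNA molecule was counted once by its unique molecular identifier (UMI). Of the 2 libraries used, the first is called the WT library here: its label gives MCD only, its file header names a library APAP0h, and the study's methods give wild-type mice on normal chow, so that it was mapped by elimination. The number of its cells that the study's filter left here is close to the count the study gives for normal chow, whereas the pool kept more cells than the study gives for both genotypes together. In the study MCD stands for a methionine-choline deficient diet, a model of steatohepatitis, so the diet of the WT library is uncertain. The second, the HFHC pool, holds cells of WT and Chi3l1-/- mice (Chil1-/- in the labels) fed a high-fat, high-cholesterol diet, captured together. No genotype per cell was used, so every value of the pool is a mix of knockout and WT cells. The study kept similar numbers of cells of both genotypes, and the proportion in each cell type was not determined here. Chi3l1-/- mice carry the deletion in all cells, and with the genotypes mixed the level of Chil1 could not check the labels. Per the study's methods, NPCs came from livers perfused with collagenase, from which hepatocytes had been spun out at low speed, and the mice had a C57BL/6 J background. The labels give neither the age nor the number of mice, and each group is 1 library. Diet, genotype, capture and library therefore cannot be told apart, no test between groups was possible, and intervals cover counting error only.

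Complement is a set of plasma proteins and cell receptors that mark particles for uptake, recruit leukocytes and form pores in membranes. C1q, built of the A, B and C chains that C1qa, C1qb and C1qc encode, is the recognition unit of the classical pathway. All pathways meet at C3, whose fragments coat particles, while properdin, encoded by Cfp, stabilises the C3 convertase of the alternative pathway. C6 is a part of the terminal pore. The small fragments C5a and C3a signal through C5ar1 and C3ar1, and Vsig4 (CRIg) is the receptor with which Kupffer cells (KCs), the resident macrophages of the liver, take up C3b-coated particles from blood. Hepatocytes are known as the main source of most plasma complement, and C1q and properdin are known to come largely from myeloid cells.

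The C1q genes lie side by side on the minus strand of chromosome 4 of the build GRCm38, C1qb at chr4:136880129-136886187, C1qc at chr4:136889804-136893065 and C1qa at chr4:136895917-136898803, and span 18.7 kb in all. C3 lies at chr17:57203970-57228136, C3ar1 at chr6:122847138-122856161 and C5ar1 at chr7:16246743-16259540, all on the minus strand. C6 lies on the plus strand at chr15:4727175-4814967, and both Cfp at chrX:20925454-20931555 and Vsig4 at chrX:96247203-96293438 are on the minus strand of chromosome X. All 9 are annotated as protein-coding. RefSeq promoter sequence of the build GRCm38.p6 was matched for 8 of the 9, all but C1qa. The stretches upstream of the annotated gene are shown for 2 C1q chains and for Vsig4, which moved together over cell types. They are also shown for C3, which was higher in hepatocytes than in KCs, and for C6, whose gap between hepatocytes and KCs was smaller than those of C1q and Vsig4. Capitals mark matches on either strand to the motifs searched for.
C1qb, chr4:136886201-136886450, minus strand: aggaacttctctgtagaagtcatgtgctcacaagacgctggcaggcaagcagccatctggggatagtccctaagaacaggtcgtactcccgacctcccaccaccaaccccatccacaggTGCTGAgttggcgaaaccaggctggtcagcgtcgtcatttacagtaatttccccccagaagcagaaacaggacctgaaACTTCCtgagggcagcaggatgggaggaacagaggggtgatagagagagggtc
C1qc, chr4:136893066-136893164, minus strand: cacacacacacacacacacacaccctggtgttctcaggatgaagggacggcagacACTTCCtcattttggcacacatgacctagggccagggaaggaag
Vsig4, chrX:96293439-96293688, minus strand: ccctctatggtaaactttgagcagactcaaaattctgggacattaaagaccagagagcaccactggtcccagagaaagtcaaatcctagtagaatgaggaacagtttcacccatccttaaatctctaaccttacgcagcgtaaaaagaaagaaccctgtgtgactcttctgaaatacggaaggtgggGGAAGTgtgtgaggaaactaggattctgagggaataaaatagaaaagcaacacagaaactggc
C3, chr17:57228137-57228386, minus strand: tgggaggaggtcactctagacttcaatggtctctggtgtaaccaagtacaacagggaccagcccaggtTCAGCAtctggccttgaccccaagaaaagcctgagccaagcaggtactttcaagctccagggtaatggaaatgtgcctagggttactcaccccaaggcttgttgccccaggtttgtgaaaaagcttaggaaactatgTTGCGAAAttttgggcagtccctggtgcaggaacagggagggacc
C6, chr15:4726960-4727174, plus strand: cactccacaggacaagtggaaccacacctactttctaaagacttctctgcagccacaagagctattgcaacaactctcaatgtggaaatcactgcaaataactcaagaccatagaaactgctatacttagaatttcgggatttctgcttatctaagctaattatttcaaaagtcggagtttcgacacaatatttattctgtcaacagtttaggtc

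The motifs were searched in the 250 bases upstream of each start, and none overlapped another in the sequences shown. The ETS core GGAAGT was found in 4 of 8 members, C1qb, C1qc, C5ar1 and Vsig4, and in 19.99% of 27025 mouse promoters of that length. In C1qb it began 53 bases before the start and in Vsig4 63 bases before it. In C1qc it began 195 bases before the RefSeq start, and the bases nearer to that start, which lie inside the gene as GENCODE annotates it, are not shown. The MAF half-site TGCTGA was found in C1qb, C3, C5ar1 and C3ar1 and in 15.8% of all promoters. The C/EBP motif TTGCNNAA was found in C3 alone, 45 bases before the start, against 9.55% of all promoters. The AP-1 motif TGANTCA (6.87% of promoters) and the TATA box TATAAA (12.97%) were found in C3ar1 alone, and the IRF motif (3.04%) in none. C6 and Cfp held none of these letters in the window.

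Depth was 53720863 UMIs over 30734 cells for the WT library, against 71981673 UMIs over 21601 cells for the HFHC pool. The cells kept had 200 to 4000 genes and at most 25% mitochondrial UMIs, 23346 and 19625 cells, with medians of 1322.5 and 1622 UMIs and of 5.95% and 1.11% mitochondrial UMIs. Clusters were named from marker genes, with all complement genes left out of the clustering, so that no cell type rests on a member. KCs were 2741 cells (11.7%) in the WT library and 394 (2.01%) in the pool, and monocyte-derived macrophages (MoMFs) 79 and 70 cells. Although NPCs had been isolated, 6816 and 8781 cells were hepatocyte-like, with all 10 hepatocyte markers detected. Clusters that stayed unnamed held 1.81% and 20.7% of the kept cells. Most of these cells of the pool were in a shallow cluster of 261 cells of the WT library and 3736 of the pool, led by Thrsp, Fabp2 and Rgn. Its second-best score was that of hepatocytes, and the hepatocyte values leave it out. The libraries shared 756 cell barcode numbers, 3.4998% of those of the pool. Levels are given as CPM, the UMIs of a gene summed over a cell type and scaled to the same total in each, with exact Poisson 95% intervals in parentheses. They are compared between cell types for 1 gene and not between genes.

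**Figure D1:**
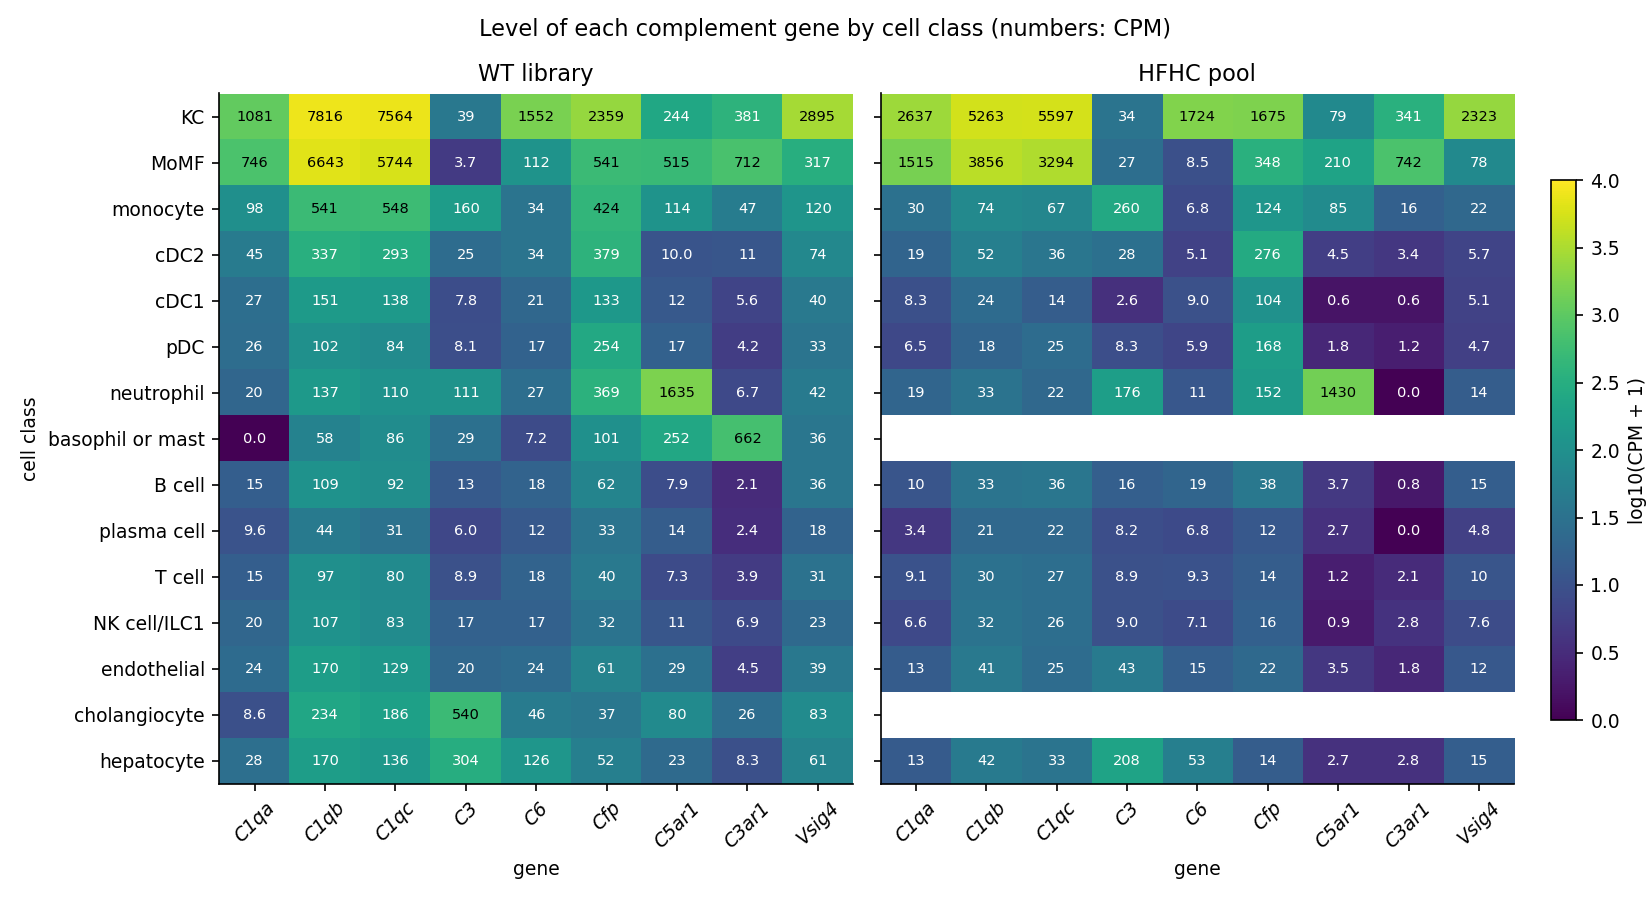
Level of each member as log10 of CPM (colour) by cell type and library, with white blocks where a library had under 50 cells of a type. Among these named cell types C1q, C6, Cfp and Vsig4 are highest in KCs, C5ar1 in neutrophils, and C3 in cholangiocytes of the WT library (540 CPM) and in monocytes of the pool (260 CPM).

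The first question was which components hepatocytes held and which macrophages did. C3 was the 1 member of 9 higher in hepatocytes than in KCs, and the other 8 were higher in KCs, in both libraries. In the WT library C3 was at 304 CPM (95% interval 289 to 319) in hepatocytes and 38.6 (35.3 to 42.01) in KCs, and in the pool at 208 (201 to 215) and 33.7 (28.0 to 40.2). The log2 ratio of hepatocytes over KCs was 2.98 (2.84 to 3.12) and 2.62 (2.37 to 2.90). Among all genes with at least 100 UMIs in both cell types together, 23.2% were over 2-fold higher in hepatocytes in the WT library and 30.3% in the pool, so that 1 of 9 members is a smaller share than that of all genes. The 8 members over 2-fold lower stand beside 33.8% of genes in the WT library and 28.7% in the pool. The median log2 ratio of the members was that of C3ar1, -5.48 (-5.98 to -5.08) and -6.92 (-7.44 to -6.50), against -0.27 and 0.09 over all genes tested.

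The deficits of the 8 were not of one size. C1qc, Vsig4, C1qb, Cfp, C3ar1 and C1qa were lower in hepatocytes by log2 ratios from -5.27 to -5.79 in the WT library and from -6.89 to -7.65 in the pool. C6 stood at -3.63 (-3.74 to -3.51) and -5.03 (-5.14 to -4.92), and C5ar1 at -3.40 (-3.69 to -3.15) and -4.85 (-5.40 to -4.40). C6 and C5ar1 thus had the smallest gaps in both libraries.

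**Figure D2:**
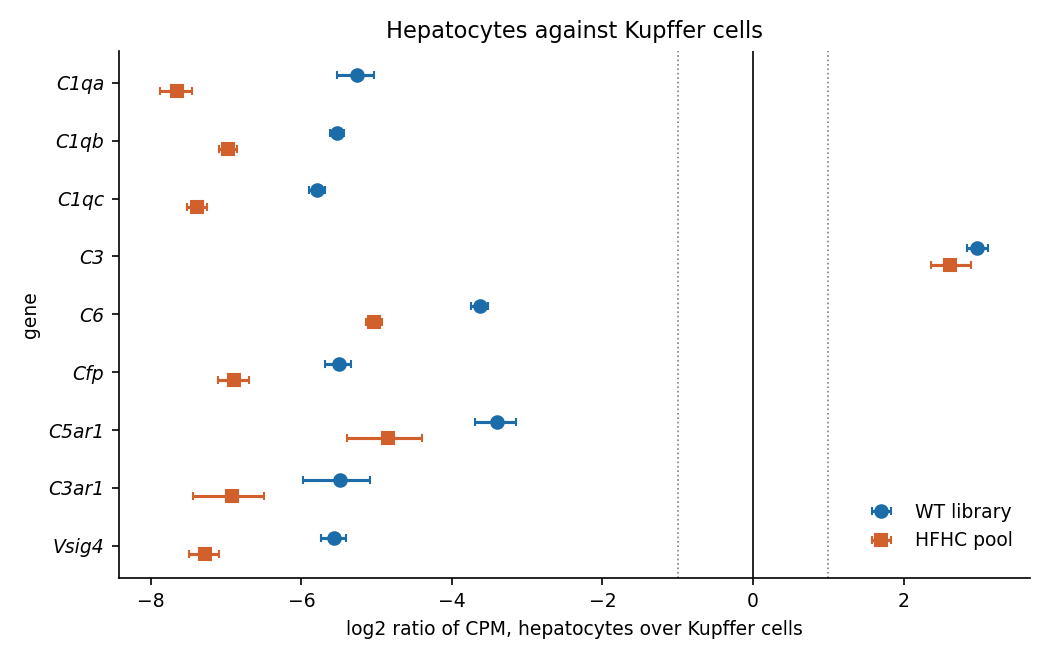
Log2 ratio of hepatocytes over KCs for each member in each library, with 95% counting intervals and lines at 2-fold. C3 alone lies above 0, at 2.98 and 2.62, and C6 and C5ar1 lie closest to 0 among the other 8.

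The C1q chains were macrophage genes. In KCs C1qb was at 7816 CPM (95% interval 7769 to 7863) in the WT library and 5263 (5189 to 5338) in the pool, C1qc at 7564 (7518 to 7610.5) and 5597 (5520.2 to 5674), and C1qa at 1081 (1064 to 1099) and 2637 (2584 to 2690.1). MoMFs carried Cx3cr1, Ms4a7 and Trem2 in both libraries and Gpnmb in the pool, with 1 Gpnmb UMI in the WT library. Of the other MoMF markers, Mmp12 and Cxcl16 were highest in MoMFs in both libraries, and Ccr2, Cd9, Cd68 and Adgre1 in neither. For each chain MoMFs came next after KCs. They held C1qb at 6643 (6338 to 6958) and 3856 (3699 to 4018), C1qc at 5744 (5460.4 to 6038) and 3294 (3148 to 3444), and C1qa at 746 (646 to 857) and 1515 (1418 to 1618). The intervals of KCs and MoMFs did not overlap for any chain in either library, yet the log2 ratios of MoMFs over KCs were small, from -0.23 (-0.30 to -0.17) for C1qb in the WT library to -0.80 (-0.90 to -0.70) for C1qa in the pool. Monocytes followed far below, with C1qb at 541 and 74.1 CPM. KCs held 79.4% and 72.1% of all C1qb UMIs of the kept cells.

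Per cell, C1q was near universal in macrophages. Cells with at least 2000 UMIs were thinned to 2000, which left out 15370 of 23346 and 10995 of 19625 cells, and shares have exact binomial 95% intervals. All 3 chains were found together in 87.9% (86.5 to 89.3) of 2163 KCs in the WT library and 97.1% (94.6 to 98.6) of 339 in the pool, and in 76.8% (63.6 to 87.0) of 56 and 88.6% (78.7 to 94.9) of 70 MoMFs. In hepatocytes that share was 1.24% (0.339 to 3.15) and 0.135% (0.0279 to 0.394). T cells, which are not known to make C1q and stand for free RNA, had a C1qb UMI in 13.7% (11.8 to 15.8) and 5.25% (4.38 to 6.23) of cells, against 13.04% (9.56 to 17.2) and 5.31% (4.42 to 6.33) of hepatocytes. At that depth, which 322 of 6816 and 2221 of 8781 hepatocytes reached, the shares of hepatocytes and T cells overlapped. Over all kept cells C1qb was higher in hepatocytes, at 169.6 (159 to 181) and 41.9996 (38.8 to 45.4) CPM, than in T cells, at 96.5 (88.6 to 105) and 29.7 (26.3 to 33.4) CPM, and barcodes with under 200 genes held 336 and 104 CPM. Before thinning the shares were 99.6% and 99.5% in KCs, 12.96% and 9.40% in T cells and 8.80% and 6.02% in hepatocytes, at median depths of 4515 and 10069.5, 1816 and 3406, and 536 and 1156 UMIs.

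**Figure D3:**
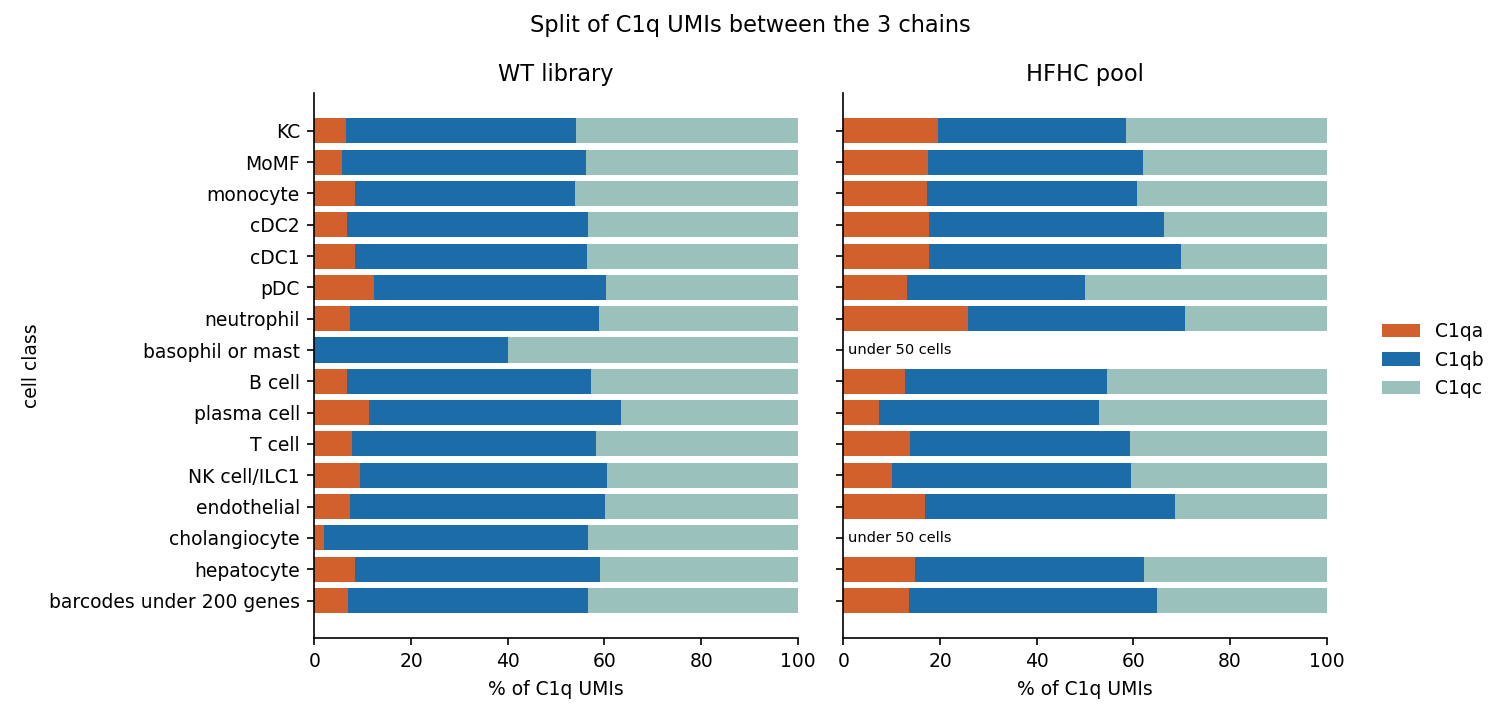
Stacked bars of the percent of C1q UMIs (x axis) that were C1qa, C1qb or C1qc, by cell type (y axis), with 1 panel per library. The C1qa segment of KCs is 6.57% in the WT library and 19.5% in the pool, and it is longer in the pool in all cell types of both panels but the one named plasma cells, whose make-up differed between the libraries, though hardly so in plasmacytoid dendritic cells (pDCs) and in NK cells or type 1 innate lymphoid cells (ILC1).

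C1qa took a different share of C1q in the 2 libraries. Among C1q UMIs of KCs, C1qa was 6.57% (6.47 to 6.67) in the WT library and 19.5% (19.2 to 19.9) in the pool. In MoMFs it was 5.68% (4.94 to 6.50) and 17.5% (16.5 to 18.6). The same direction was seen where C1q was at background, with 7.78% (6.25 to 9.54) and 13.9% (11.2 to 16.9) in T cells. Over the cell types the share had a median of 7.35% and 17.0%. Depth moved it little within a library: in KCs of the WT library it went from 7.11% in cells under 2000 UMIs to 6.21% in cells over 10000, and in the pool it stayed between 19.1% and 20.1% over 4 depth bins. The share was thus higher in the pool in both macrophage types, in T cells and in each depth bin of KCs. It hardly differed in pDCs, at 12.4% (9.64 to 15.6) and 13.1% (6.72 to 22.2), and in NK cells or ILC1, at 9.39% (5.83 to 14.1) and 10.1% (5.66 to 16.4), and the intervals also overlapped in B cells and conventional dendritic cells of type 1. The 1 named type where it was not higher, plasma cells, had overlapping intervals, at 11.3% (4.99 to 21.00005) and 7.35% (2.43 to 16.3), and was not the same mix in the 2 libraries. It was led by Jchain and Igha but also by the division genes Top2a and Mki67, and at a resolution of 1.0 the plasma cell cluster held 20 and 69 cells while a cluster of T cells led by Pclaf and Top2a held 114 and 75. The source of the difference in the share was not tested.

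C3 was found in epithelial as well as in myeloid cells. In the WT library the highest level among named cell types was in cholangiocytes, the epithelium of the bile ducts, at 540.4 CPM (95% interval 466 to 623) over 80 cells. Hepatocytes followed at 304 (289 to 319), then monocytes at 160.4 (136 to 188) and neutrophils at 111 (100.3 to 123), and these 4 intervals did not overlap. In the pool, where cholangiocytes were under 50 cells, monocytes were at 259.9 (236 to 286), hepatocytes at 208 (201 to 215) and neutrophils at 176 (148 to 208). There monocytes lay above hepatocytes, whose interval overlapped that of neutrophils. After thinning, a C3 UMI was found in 45.7% (40.1 to 51.3) and 29.8% (27.9 to 31.7) of hepatocytes, 56.3% (44.0 to 68.1) of cholangiocytes and 25.9% (20.5 to 31.9) and 38.1% (32.5 to 44.0) of monocytes. In T cells the share was 2.40% (1.61 to 3.43) and 1.32% (0.901 to 1.87), and unthinned shares of hepatocytes were 16.7% and 22.7%. All of these cell types thus lay above the T cells. Barcodes with under 200 genes held C3 at 154 (135 to 175) and 136 (101 to 180) CPM. Neutrophils lay under these barcodes in the WT library, and their intervals overlapped in the pool. The interval of monocytes of the WT library also overlapped that of the barcodes. T cells held C3 at 8.86 CPM in each library, under monocytes and neutrophils. CPM of such barcodes cannot tell free RNA from a cell's own, and the part of free RNA in these levels was not tested. Endothelial cells held 20.3 (16.9 to 24.2) and 42.8 (36.6 to 49.8) CPM, with a C3 UMI in 2.46% (1.70 to 3.44) and 8.43% (6.34 to 10.9) of thinned cells. The summed level of the 10 hepatocyte markers, all detected, in those endothelial cells was 1825 and 9880.5 CPM, against 47999 and 44359.5 CPM in hepatocytes, and in cholangiocytes of the WT library, where all 10 were also detected, it was 10092 CPM. The part of hepatocyte RNA in the C3 of endothelial cells and cholangiocytes was not tested.

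Macrophages held little C3. MoMFs had 3.73 CPM (95% interval 0.0944 to 20.8) in the WT library, from 1 UMI, and 27.3 (15.6 to 44.3) in the pool, and KCs were at 38.6 and 33.7 CPM. Within KCs, however, a small cluster of 72 cells of the WT library led by Marco, Cxcl9 and Cxcl10 stood at 236 CPM (195 to 283), against 30.2 CPM (27.2 to 33.6) in the largest cluster of 2000 cells. A cluster that no marker list named, led by Ly6i and Cxcl9, held more C3 than any other cluster of at least 50 cells among monocytes and macrophages did, 717 CPM (658 to 780.4) over 161 cells and 339 CPM (315 to 364) over 321 cells. Among monocytes, C3 was higher in the cluster led by F13a1 and Chil3, markers of classical monocytes, at 192 CPM (162 to 227) and 285 CPM (257 to 317), than in that led by Ace and Ear2, at 67.4 CPM (39.3 to 108) and 173 CPM (133 to 221). Hepatocytes held 40.8% and 55.2% of all C3 UMIs in kept cells and KCs 13.6% and 2.18%.

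Cfp, which encodes properdin, was highest in KCs, at 2359 CPM (95% interval 2333 to 2385) in the WT library and 1675 (1633 to 1717) in the pool. MoMFs held 541 (456 to 636) and 348 (302 to 399), a log2 ratio to KCs of -2.12 (-2.37 to -1.89) and -2.26 (-2.48 to -2.07). Beyond macrophages, Cfp was above its T cell level in dendritic cells and neutrophils. Conventional dendritic cells of type 2 (cDC2) held 379 (344 to 417) and 276 (252 to 302), pDCs 254 (234 to 275) and 168 (149 to 189), and neutrophils 369 (349 to 390.3) and 152 (126 to 182). Type 1 dendritic cells were lower, at 133 and 104 CPM, and T cells lay at 40.0 and 14.1 CPM. In the WT library the intervals of MoMFs, monocytes, cDC2 and neutrophils overlapped, each with the next in that order. A Cfp UMI was found in 43.8% (37.7 to 50.1) and 36.2% (30.2 to 42.6) of thinned cDC2, 97.7% (97.0 to 98.3) and 94.1% (91.04 to 96.4) of KCs and 6.45% (5.13 to 7.99) and 2.605% (1.998 to 3.33) of T cells.

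C6, a terminal component, was a KC gene in these data. KCs held 1552 CPM (95% interval 1531 to 1573) in the WT library and 1724 (1682 to 1768) in the pool, and 80.1% and 77.3% of the C6 UMIs of kept cells. MoMFs were at 112 (75.5 to 159.7) and 8.52 (2.77 to 19.9), the latter from 5 UMIs, so that the log2 ratio of MoMFs over KCs was -3.75 (-4.36 to -3.28) and -7.40 (-9.28 to -6.44). By point estimate this was the widest gap of any member between the 2 macrophage types in each library, although in the WT library its interval overlapped that of Vsig4 and lay within that of C3, at -2.37 (-8.68 to -0.89) from 1 MoMF UMI.

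As a percent of the KC level, hepatocytes held more C6 than C1qb, Vsig4 or Clec4f. C6 was at 126 (116 to 136) and 52.8 (49.1 to 56.6) CPM in hepatocytes, 8.09% (7.47 to 8.75) and 3.06% (2.84 to 3.30) of the KC level. For C1qb that percentage was 2.17% and 0.798%, for Vsig4 2.11% and 0.639%, and for the KC marker Clec4f 1.87% and 0.69%. In T cells C6 was at 1.14% and 0.539% of the KC level. A C6 UMI was found in 19.3% (15.1 to 24.0) and 7.83% (6.75 to 9.03) of thinned hepatocytes and in 2.98% (2.09 to 4.10) and 1.84% (1.33 to 2.47) of T cells, and before thinning in 7.53% and 6.50% and in 3.08% and 2.98%. The C6 of hepatocytes was thus above that of T cells in both libraries and far under that of KCs. It was not above that of barcodes with under 200 genes, which held 111 (94.96 to 129) and 57.2 (35.4 to 87.5) CPM, intervals that overlapped those of hepatocytes.

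C5ar1, the C5a receptor, had its highest level in neutrophils, at 1635 CPM (95% interval 1592 to 1678) in the WT library and 1430.4 (1348 to 1516) in the pool. MoMFs were next, at 515 (432 to 608) and 209.7 (174 to 250.2). KCs held 244 (235 to 252) and 79.2 (70.3 to 88.9), and monocytes 114 (93.6 to 137) and 85.2 (71.6 to 101). Neutrophils stood clear of all other cell types, and MoMFs lay above KCs in both libraries, with log2 ratios of 1.09 (0.82 to 1.33) and 1.41 (1.09 to 1.71). In the WT library the interval of KCs overlapped that of basophils or mast cells, at 252 (175 to 350.1), and in the pool that of monocytes. Neutrophils had medians of 1009 and 2121 UMIs, so that most of those of the WT library were too shallow to be thinned. A C5ar1 UMI was found in 86.2% (77.5 to 92.4) and 88.5% (83.3 to 92.5) of the neutrophils that were thinned. It was found in 28 of 56 MoMFs (36.3% to 63.7%) and 38.6% (27.2 to 51.0) of 70, and in 33.9% (31.9 to 35.9) and 13.6% (10.1 to 17.7) of KCs. T cells had 1.16% (0.634 to 1.94) and 0.256% (0.0941 to 0.557), and unthinned shares of KCs were 49.3% and 28.7%. Neutrophils held 51.6% and 53.1% of the C5ar1 UMIs of kept cells, and hepatocytes of the WT library, with 22.9 CPM against 2.69 in the pool, were in the library that held 3145 rather than 341 neutrophils. The part of neutrophil RNA in that value was not tested.

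C3ar1, the C3a receptor, was highest in MoMFs, at 712 CPM (95% interval 615 to 821) and 742 (673 to 815). Basophils or mast cells of the WT library, 73 cells, held 662 (533 to 812), an interval that overlapped that of MoMFs. KCs were at 381 (371 to 392) and 341 (322 to 360.1). In those basophils or mast cells C1qa was not found, which allows up to 21.6 CPM, while C1qb, at 57.5 CPM, and Vsig4, at 36.0 CPM, were near their T cell levels of 96.5 and 31.0 CPM. After thinning, C3ar1 was found in 76.8% (63.6 to 87.0) and 64.3% (51.9 to 75.4) of MoMFs, 49.6% (47.5 to 51.7) and 45.7% (40.3 to 51.2) of KCs and 44.0% (24.4 to 65.1) of 25 basophils or mast cells, against 0.744% (0.341 to 1.41) and 0.598% (0.327 to 1.001) of T cells. Before thinning it was in 64.6% and 77.2% of KCs. C5ar1 and C3ar1 were found in the same cell in 18.4% (16.8 to 20.1) and 7.37% (4.83 to 10.7) of KCs and in 35.7% (23.4 to 49.6) and 25.7% (16.0 to 37.6) of MoMFs. Neutrophils of the pool had no C3ar1 UMI, which allows up to 3.80 CPM.

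Vsig4 followed KCs more closely than the other receptors did. KCs held 2895 CPM (95% interval 2867 to 2924) and 2323 (2274 to 2373), MoMFs 317 (253 to 392) and 78.4 (57.4 to 105), and monocytes 119.8 and 21.6 CPM. The log2 ratio of MoMFs over KCs was -3.17 (-3.52 to -2.88) and -4.86 (-5.34 to -4.47). KCs held 81.4% and 85.0% of the Vsig4 UMIs of kept cells. After thinning Vsig4 was found in 98.5% (97.9 to 99.0) and 83.8% (79.4 to 87.5) of KCs. It was found in 19.6% (10.2 to 32.4) of 56 MoMFs and 7 of 70 (4.12% to 19.5%), against 4.797% (3.66 to 6.16) and 1.96% (1.44 to 2.61) of T cells. Vsig4 and C6 were found in the same cell in 89.0% (87.6 to 90.2) and 73.5% (68.4 to 78.1) of KCs, and in 3 of 56 and 0 of 70 MoMFs. No order of the libraries is read from the share of KCs with C6, which was lower in the pool although its CPM was higher.

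**Figure D4:**
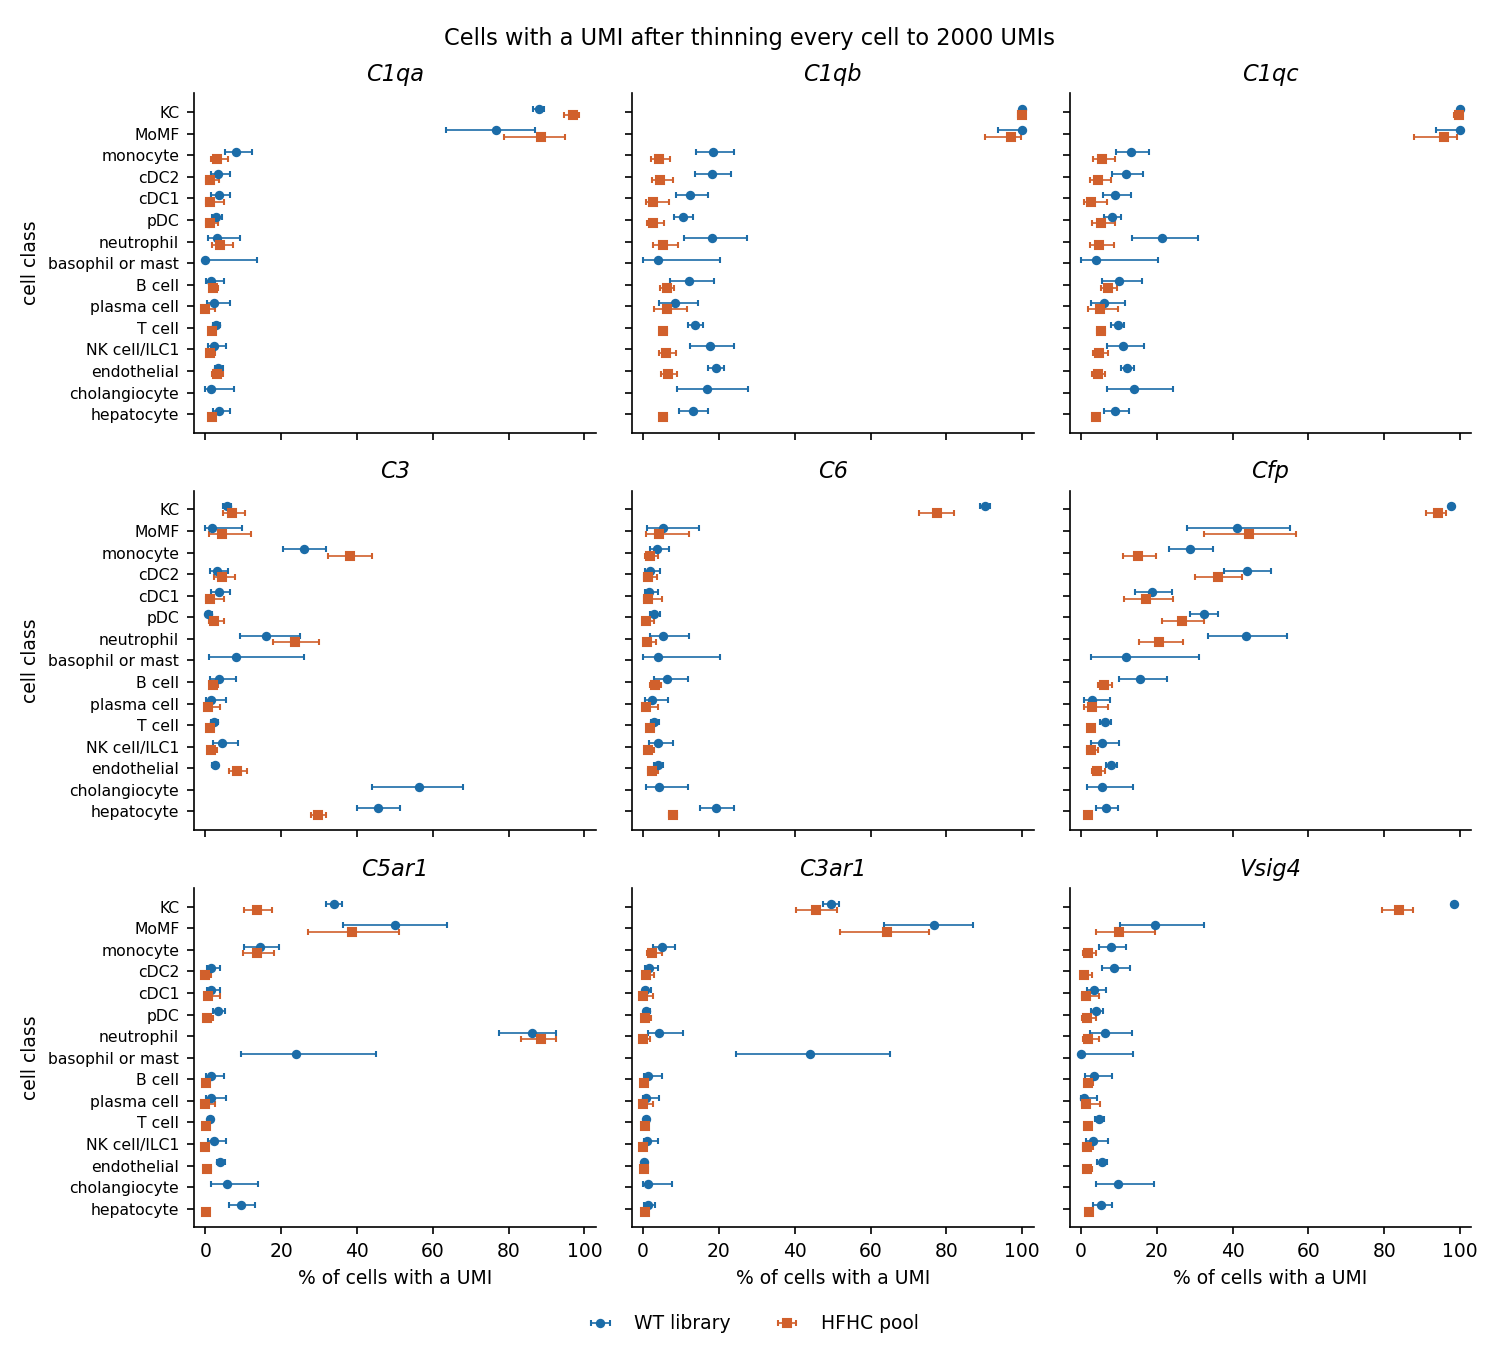
Percent of cells with a UMI (x axis) of each member, 1 panel per gene, by cell type (y axis) after thinning to 2000 UMIs, with exact binomial 95% intervals, for both libraries. Among cells deep enough to be thinned, C5ar1 was found in 86.2% and 88.5% of neutrophils, C3ar1 in 76.8% and 64.3% of MoMFs, and Vsig4 in 98.5% and 83.8% of KCs.

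Levels within a cell type were then set side by side between the HFHC pool and the WT library. In KCs 1 of 9 members, C1qa, was over 2-fold higher in the pool and 1, C5ar1, over 2-fold lower. Among all 8901 genes tested in KCs 3.66% were higher and 3.83% lower by that measure. C1qa stood at a log2 ratio of 1.29 (1.25 to 1.32) and C5ar1 at -1.62 (-1.80 to -1.45). The other 7 lay under 2-fold, from -0.57 (-0.59 to -0.55) for C1qb to 0.15 (0.11 to 0.19) for C6, and the median member, Vsig4, was at -0.32 (-0.35 to -0.28) against -0.02 over all genes. C5ar1 was lower in the pool in the 3 depth bins of KCs over 2000 UMIs, at 67.0 to 94.8 CPM against 228 to 267 CPM, with intervals that did not overlap. Under 2000 UMIs it was at 109.8 (47.4 to 216) CPM, from 8 UMIs, and 176 (145 to 211) CPM, so that the difference was not resolved at that depth. The other chains did not move with C1qa, C1qc being at -0.43 (-0.46 to -0.41).

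In MoMFs, over 79 and 70 cells, 7 members had enough UMIs. C1qa was over 2-fold higher, at 1.02 (0.80 to 1.25), beside 6.44% of genes, and 2 were over 2-fold lower, C5ar1 at -1.29 (-1.66 to -0.93) and Vsig4 at -2.001 (-2.57 to -1.48), beside 4.29%. C3ar1 lay at 0.05 (-0.19 to 0.31). C5ar1 was thus lower in the pool in both macrophage types, and C3ar1 in neither by 2-fold. Where each cell was named from its own markers, Vsig4 in MoMFs fell to -0.99 and C1qa to 0.88, both under 2-fold.

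In monocytes none of 7 members was over 2-fold higher, beside 4.05% of genes, and 5 were lower, beside 3.08%. These were C1qa, C1qb, C1qc, Cfp and Vsig4, with log2 ratios from -1.72 (-2.26 to -1.22) for C1qa to -3.02 (-3.34 to -2.73) for C1qc. C3 was at 0.69 (0.43 to 0.97) and C5ar1 at -0.42 (-0.79 to -0.04). With cells named from their own markers C1qc was at -0.62 and Cfp at -0.69, and with complement genes kept in the clustering C1qa turned to 0.38 and C3 to -0.46. C3 was also lower in the pool with cells named from their own markers, at -0.22. The values of C1qa, C1qc, Cfp and C3 in monocytes thus depended on how cells were clustered and named.

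In neutrophils 5 of 7 members were over 2-fold lower in the pool, C1qb, C1qc, C6, Cfp and Vsig4, beside 4.75% of genes, and none was higher, beside 8.5%. C5ar1, the member with its highest level in neutrophils, was at -0.19 (-0.29 to -0.10), C3 at 0.67 (0.37 to 0.95) and Cfp at -1.27 (-1.56 to -1.01). In hepatocytes 7 of 8 were over 2-fold lower, beside 8.09% of genes, and none higher, beside 5.62%. C3, which hepatocytes carry, was the exception at -0.55 (-0.64 to -0.46), and C6 was at -1.25 (-1.40 to -1.10). C1qa in hepatocytes, at -1.10 (-1.42 to -0.78), lay under 2-fold with cells named from their own markers, at -0.79, and C6 in neutrophils, at -1.12 (-2.43 to -0.27), did so as a mean over cells, at -0.87. The lower members in both cell types were for the most part genes of KCs, and C1qb was also lower in T cells, at -1.70 (-1.91 to -1.49), and in B cells, at -1.70 (-2.09 to -1.33). KCs were 11.7% of kept cells in the WT library and 2.01% in the pool. Those shares leave out the cells over 4000 genes, of which 22 and 365 were KCs by their own markers. Over all cells C1qb had 140250 of 53720863 UMIs in the WT library and 101666 of 71981673 in the pool, so the kept shares do not give the KCs of the whole capture. The summed level of the 12 KC markers in T cells was 339.5 and 175 CPM, all 12 detected in both, and in hepatocytes 524 and 221 CPM. The part of free KC RNA in these ratios was not tested.

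**Figure D5:**
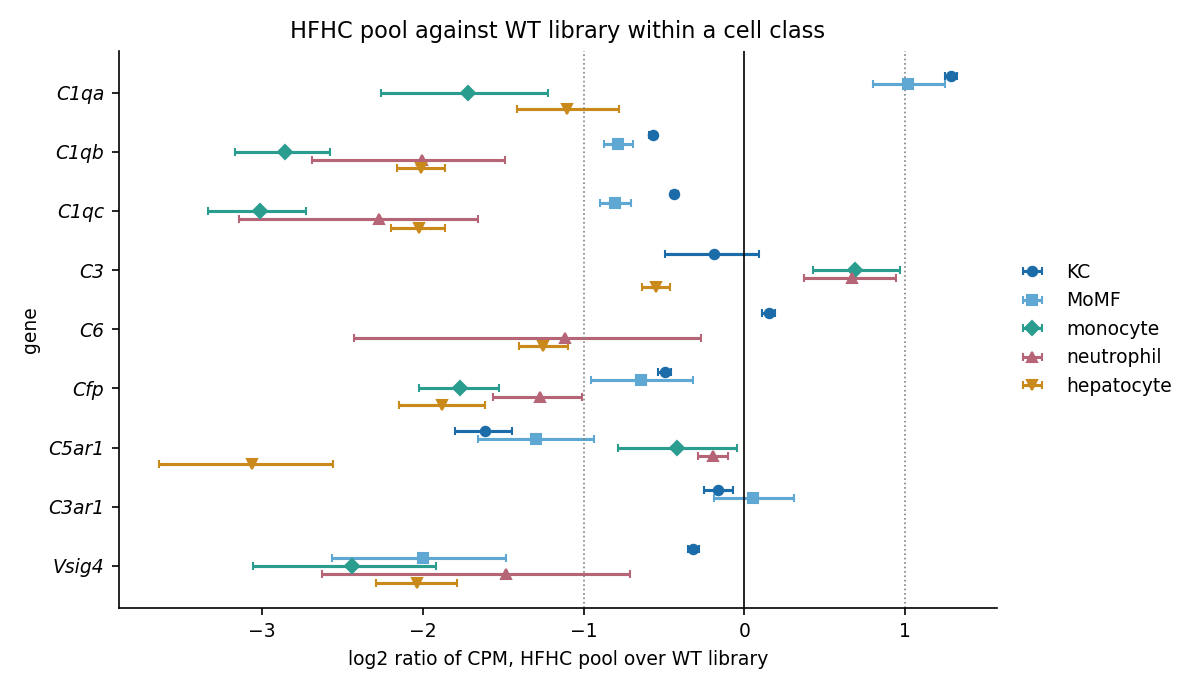
Log2 ratio, HFHC pool over WT library, of each member with at least 100 UMIs, by cell type, with 95% counting intervals and lines at 2-fold. In KCs only C1qa (1.29) and C5ar1 (-1.62) lie beyond 2-fold, and in hepatocytes all members shown but C3 (-0.55) lie below it.

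The limit of 4000 genes per cell bore on the pool above all. It removed 68 cells of the WT library and 814 of the pool, and those 814 held 73.5% of all C1qb UMIs of the pool, 78.7% of C6, 79.6% of Vsig4, 33.2% of C5ar1 and 23.4% of C3. By their own markers 22 and 365 of these cells were KCs. In the pool 86 more were MoMFs by their own markers, against 70 MoMFs that were kept by cluster, so the MoMF values of the pool leave out many such cells. With own markers the log2 ratio of Vsig4 in MoMFs between the libraries was -0.99 within the limit and -0.34 without it. KCs named from their own markers within the limit, rather than by cluster, held C5ar1 at 218 and 47.0 CPM and C6 at 1673 and 2415 CPM. Those with no upper limit held C1qa at 1079.9 and 2557 CPM, C5ar1 at 218 and 46.4 CPM, C6 at 1656 and 2407 CPM and Vsig4 at 3063 and 2957 CPM. The higher C6 and lower C5ar1 of the pool, against KCs taken by cluster, were thus already there within the limit and came with the naming. The directions of C1qa and C5ar1 between the libraries were as under the limit.

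The KCs themselves were of several clusters. The largest, 2000 and 329 cells, held C6 at 1604 CPM (1581 to 1627) and 1748 CPM (1704 to 1794), C3ar1 at 400 and 349 CPM and Vsig4 at 2908 and 2311 CPM. A shallower cluster of 669 and 50 cells held C6 at 1362 CPM (1300.2 to 1425) and 1617 CPM (1448 to 1801), C3ar1 at 279.9 and 229 CPM and Vsig4 at 3140.5 and 2592 CPM. The Marco and Cxcl9 cluster of the WT library, which also carried the cell cycle gene Cdk1, was lower in C6, at 844 CPM (766 to 929), and in Vsig4, at 1949 CPM (1828 to 2075). C3ar1 and C6 were thus higher by point estimate in the largest cluster than in the shallower one in both libraries, with overlapping intervals for C6 in the pool. The Cxcl9 cluster, with 15 cells in the pool, is not ranked there. C3 was highest in the Cxcl9 cluster of the WT library.

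The wider complement list gave the setting. Of 53 listed genes 51 had a column, and 40 of them were tested between hepatocytes and KCs in the WT library, where 21 were over 2-fold higher in hepatocytes and 16 lower, beside 23.2% and 33.8% of all genes. In the pool 23 of 42 were higher and 18 lower, beside 30.3% and 28.7%. The median log2 ratio of the list was 2.68 and 2.98, against -0.27 and 0.09 over all genes. Soluble regulators were hepatocyte genes, with 9 of 10 higher in each library, and none of 7 receptors was. Terminal components were hepatocyte genes too, 5 of 6 in each library, and C6 was the 1 that was lower.

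Named by level, C9 stood at 871 and 624 CPM in hepatocytes and C8a at 298 and 232 CPM, both subunits of the terminal pore. The mannose-binding lectin gene Mbl2 was at 343 and 174 CPM, and vitronectin (Vtn), which holds the pore back in the fluid phase, at 443 and 186 CPM. These genes were at or under 18.1 CPM in KCs. KCs instead held Fcna, a ficolin of the lectin pathway, at 2977 and 1393 CPM and Itgb2, the beta chain of complement receptor 3, at 540.4 and 450.4 CPM.

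Between the libraries, 26 listed genes were tested in KCs, of which 2 were over 2-fold higher in the pool and 6 lower, beside 3.66% and 3.83% of all genes. Beside C1qa the higher 1 was Itgax, the alpha chain of complement receptor 4, at 1.92 (1.58 to 2.26). Beside C5ar1 the lower ones were Fcna at -1.10 (-1.14 to -1.05), Cd55, which speeds the decay of C3 convertases, at -1.81 (-2.20 to -1.48), the second C5a receptor C5ar2 at -1.18 (-1.51 to -0.90), and Vtn and C9, which were at or under 18.1 CPM in KCs. Both C5a receptors were thus lower in KCs of the pool. In hepatocytes 40 were tested, 1 higher and 16 lower, beside 5.62% and 8.09% of all genes. The higher was Cfd, factor D, at 4.38 (3.08 to 8.01), from 2 UMIs in the WT library. Of the lower, C8b was at -1.21 (-1.35 to -1.07), Vtn at -1.25 (-1.33 to -1.17), and C1ra, C2, Masp1 and Cpn2 between -1.13 and -1.46. Hepatocytes were not the same mix of clusters in the 2 libraries. The cluster led by Mup20 and Mup7 held 2803 cells of the WT library and 1336 of the pool, and that led by Cps1 and Hal 775 and 2902. The part of this mix in the ratios of hepatocytes between the libraries was not tested.

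Last, the genes most like each member were sought over 28 profiles, each a cell type of at least 50 cells in 1 library, by Pearson's r of log2(CPM + 1) among 12198 genes with at least 200 UMIs. The profiles share libraries, depth and free RNA, so that r is a description. C1qb and C1qc were each other's nearest gene, with r of 0.99 and a Spearman's rho of 0.97. C1qa stood nearest to Il18bp (0.95), Fabp7 (0.94) and Cd207 (0.92). Vsig4 stood nearest to Clec4f (0.98), Folr2 (0.95) and Fcna (0.95), and C6 to Pcolce2 (0.92), Folr2 (0.91) and Clec4f (0.90). The remaining members had other neighbours. Cfp was nearest to the lysosomal glycoprotein gene Cd68 (0.92), C5ar1 to the formyl peptide receptor gene Fpr2 (0.94), C3ar1 to Slc7a8 (0.93) and C3 to Mgst1 (0.90). Cd68, Clec4f, Folr2 and Il18bp are markers by which the macrophage clusters were named. Between members, r of C3 with the other 8 ran from 0.06 for C1qa to 0.45 for C5ar1.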

How the data were processed

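Members and gene lists were chosen with earlier results of these data known. The deposited counts are UMIs per cell and gene made by the authors with the BD Rhapsody WTA Analysis Pipeline 1.10.1 on GRCm38 and GENCODE vM19, per the file headers and the submitters' processing notes; aligner settings are not given in the sources used here. The sample-tag table of the pool was not used.

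Cells with 200 to 4000 genes and at most 25% mitochondrial UMIs were kept. Clustering followed the study's methods with complement genes left out: SCTransform (0.4.2) on 4000 variable genes, reciprocal PCA in Seurat 5.3.0 (R 4.3.3), resolution 0.8, and 0.5 for macrophages and monocytes. Clusters took names from marker lists, and thresholds for mixed clusters, left out, were set after clusters were seen. Doublets were kept, and Scrublet (scanpy 1.11.5) removal was an alternative (8.17% and 1.997% called). Summed UMIs were scaled to CPM, and log2 ratios had 1 UMI added; over 2-fold required 100 UMIs in both groups together. Shares of cells were taken after thinning to 2000 UMIs. Intervals are exact and 95% (scipy 1.17.1). A value of 0 allows up to 3 counts. Named genes were the members, for each role of the complement list those highest in hepatocytes and KCs or over 2-fold apart between libraries, and each member's 3 nearest genes; 1 gene that met this rule is not reported here. Scripts were tested on simulated data.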

Additional observations from a re-analysis of the deposited data

Results flagged for a closer look

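C1qa in CPM moved in opposite directions between the libraries in KCs, MoMFs, monocytes and hepatocytes, while its share of C1q UMIs was higher in the pool in each. That share was 6.57% and 19.5% in KCs, 5.68% and 17.5% in MoMFs, 8.29% and 17.3% in monocytes and 8.36% and 14.7% in hepatocytes. In the same order, C1qb was at log2 ratios of -0.57, -0.78, -2.86 and -2.01. The log2 ratio of C1qa, HFHC pool over WT library, was 1.29 in KCs and 1.02 in MoMFs, but -1.72 in monocytes and -1.10 in hepatocytes. The difference was not tested. These values depend on the setting: the monocyte value turned to 0.38 with complement genes kept in the clustering, the MoMF value lay between 0.88 and 0.99 under 4 alternatives, less than 2-fold, and the hepatocyte value between -0.51 and -0.97 under 5. Cells with more than 4000 genes, which were left out of the clusters, held C1qb at 3988 CPM in the WT library and 3949 CPM in the pool. The same cells held C3 at 203 and 92.7 CPM.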

How the results depend on the processing

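Under 11 alternatives (cells named from their own markers, doublets removed, a mitochondrial limit of 10%, complement genes kept in the clustering, a resolution of 1.0, a mean over cells, no upper gene limit, scaling by the median gene ratio, a minimum of 20 UMIs, and 2 with cells of at least 1000 UMIs, these 2 chosen after seeing the data), the counts of members over 2-fold apart between hepatocytes and KCs and between the libraries in KCs did not change. Of the ratios over 2-fold between libraries, 1 changed sign: C1qa in monocytes, from -1.72 to 0.38 with complement genes kept in the clustering. Under it and other alternatives C1qa in MoMFs (0.88 to 0.99) and in hepatocytes (-0.51 with a mean over cells) fell under 2-fold, as did C6 in neutrophils (-0.87) with a mean over cells and C1qc in B cells (-0.88) with own markers and no upper gene limit, where Vsig4 in MoMFs was at -0.34. Of those under 2-fold, C3 in monocytes changed sign from 0.69 to -0.46 with complement genes kept and to between -0.22 and -0.30 with own markers. C3 in KCs went from -0.19 to between 0.16 and 0.76, and C3ar1 in MoMFs from 0.05 to between -0.07 and -0.24, with own markers or a mean over cells. Cfp in B cells passed 2-fold, from -0.69 to -2.41 with complement genes kept in the clustering and to -1.01 with own markers and cells of at least 1000 UMIs. The cause was not tested. No paired analysis was possible because each group is 1 library, and for the same reason no library could be left out. Levels of a few CPM in MoMFs and in basophils or mast cells rest on a few UMIs.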

Other observations

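Barcodes with under 200 genes, 6266 in the WT library and 915 in the pool, held C1qb at 336 and 104 CPM, C6 at 111 and 57.2 CPM and C3 at 154 and 136 CPM. C1qa made up 6.95% (5.47 to 8.68) and 13.5% (6.68 to 23.5) of their C1q UMIs. Cells of mixed clusters, 859 and 206, held Vsig4 at 1893 and 623 CPM and 14.8% and 1.65% of all Vsig4 UMIs of their libraries. Those totals, 50518 and 49329 UMIs, include cells that were not kept, whereas the shares given for KCs are of the 48231 and 9900 UMIs of kept cells.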
